A study of Homo sapiens with 8 samples.

Results

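The genes described here write, copy and remove methyl groups on DNA cytosine. They are DNMT1, UHRF1, UHRF2, DNMT3A, DNMT3B, TET1, TET2, TET3 and TDG, 9 genes grouped by function. The peaks described are the m6A peaks that overlap the RefSeq bounds of these genes on GRCh38 by at least 1 bp, on either strand. There were 23 such peaks among 23937 in METTL3-knockout cells and 25 among 29084 in wild type, or 48 of 53021 in both lists. Both groups are HEK293T, an established line grown from human embryonic kidney. The knockout (METTL3-/-) lacks METTL3, the enzyme that adds most N6-methyladenosine (m6A) to messenger RNA, and the wild type is the parental line. RNA bound to chromosomes was isolated and freed of DNA and ribosomal RNA, and m6A-bearing fragments were enriched by immunoprecipitation (IP) beside an input. The 8 samples form 4 groups of 2, namely knockout IP, knockout input, wild-type IP and wild-type input. The sources used here do not say whether the knockout line is 1 clone.

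DNA methylation in mammals sits mostly on cytosines that precede a guanine. DNMT3A and DNMT3B set new marks, and DNMT1 copies them after replication with the help of UHRF1, which binds hemimethylated sites. The TET enzymes oxidise the methyl group in steps, and TDG cuts out the most oxidised forms so that base excision repair can restore an unmodified cytosine. In dividing cells the mark is also lost wherever copying fails.

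Each genotype is represented by 1 deposited peak list, so no difference below has a replicate check and none carries a p-value across samples. The fold is the ratio of IP over local input at a peak's summit and is the value the authors deposited. IP reads and local input at each summit were recovered from the fold and the p-value. In the fold 1 IP read weighed 0.479 on the plus and 0.438 on the minus strand of the knockout, and 0.607 and 0.572 in wild type, so raw reads of the lists are not on the same scale. The median peak in a protein-coding gene rested on 32 IP reads in the knockout and 26 in wild type. METTL3 itself held 0 knockout and 2 wild-type peaks. The whole knockout list held 82.3 peaks per 100 in wild type. Whether a peak of either list marks m6A was not tested. The lists give peaks and not RNA levels, so the cell type could not be checked against marker genes.

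Peaks were found in 8 of the 9 genes in the knockout and in 6 of 9 in wild type. Of all protein-coding genes, 34.8% held a knockout peak and 39.6% a wild-type peak. Among the 8310 protein-coding genes of 23.0 to 151.9 kb, the range of the 9 genes, these shares were 48.7% and 55.6%. DNMT3A was the gene with no peak in either list, and DNMT3B and UHRF1 had peaks in the knockout alone. That is 2 of 8 genes with a knockout peak and none in wild type, against 23.6% of all protein-coding genes with a knockout peak. The 6 genes with wild-type peaks all had knockout peaks too. Of all protein-coding genes with a wild-type peak, 32.8% had none in the knockout. The shares of 23.6% and 32.8% are over genes of any length and were not matched to the lengths of the 9 genes. The number of peaks in the 9 genes, called member peaks here, was 23 in the knockout (95% Poisson interval 14.6 to 34.5) and 25 in wild type (16.2 to 36.9). That is 92 knockout peaks per 100 in wild type, against 80.7 over all protein-coding genes. Per 100 kb the 9 genes held 2.81 knockout and 3.05 wild-type peaks, against 1.76 and 2.201 in all genes of the same length range. The comparison sets were not restricted to genes expressed in these cells, since the lists give no RNA levels. Poisson intervals here cover counting error and treat peaks as independent.

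**Figure D1:**
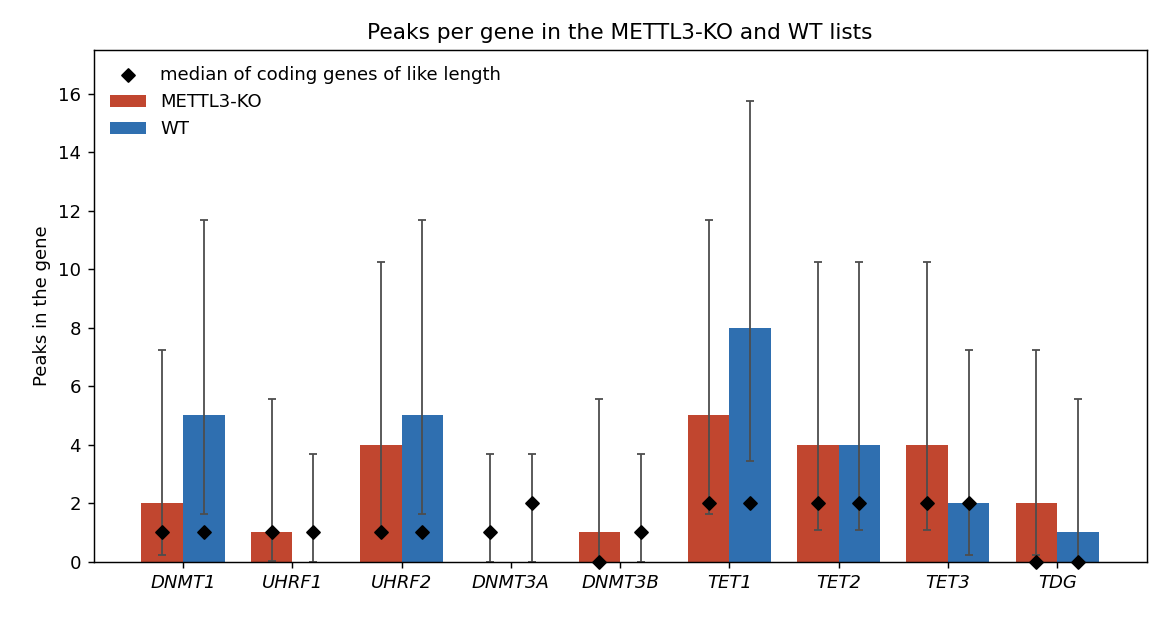
Number of peaks in each of the 9 genes (bars, METTL3-KO left of WT) with 95% Poisson intervals, and the median number in protein-coding genes within 1.25-fold of the gene's length (diamonds). TET1 has most peaks in both lists, 5 in METTL3-KO and 8 in WT, and DNMT3A has 0 in both.

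**Figure D2:**
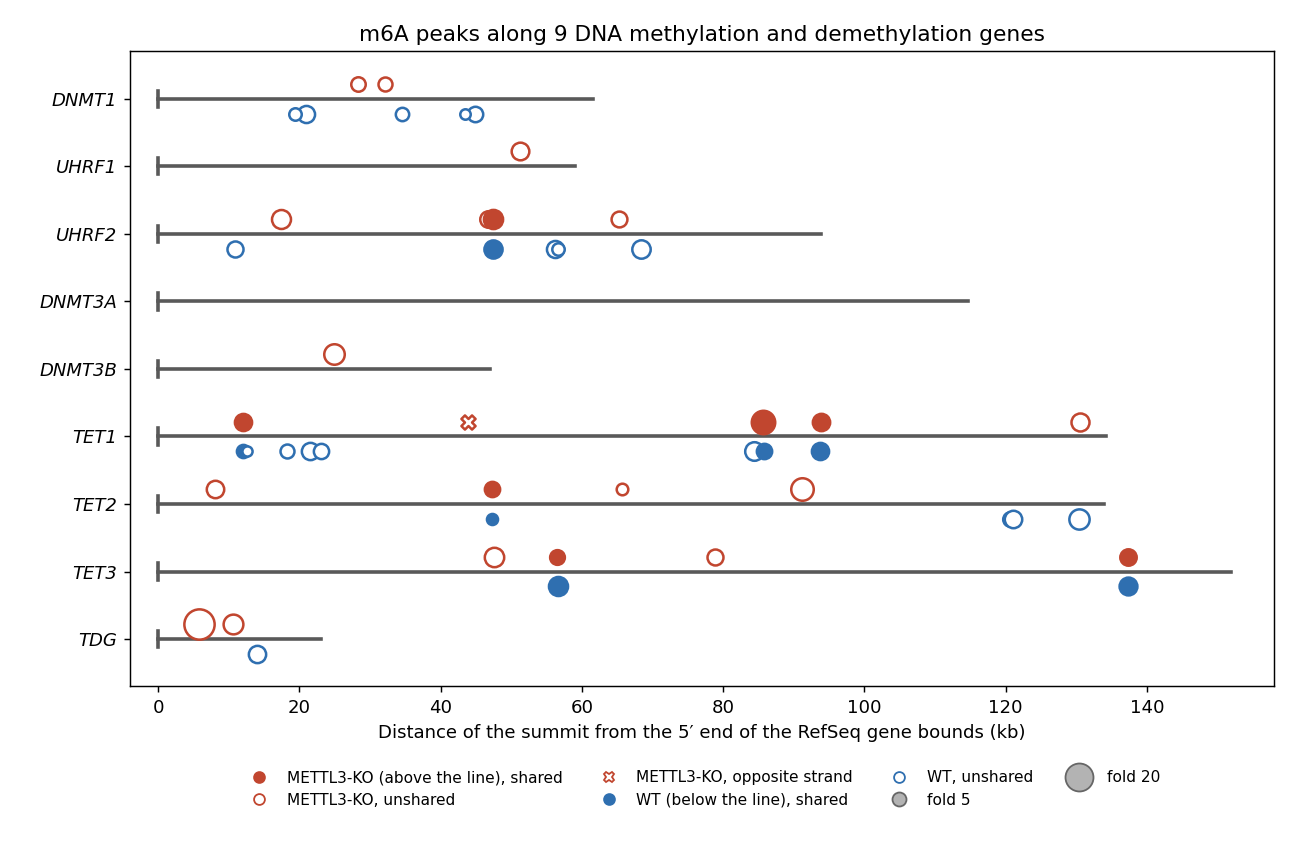
Summits along each gene, in kb from the 5′ end of its RefSeq bounds, with METTL3-KO above and WT below the line. Marker area follows the fold, filled markers have a partner in the other list on the same strand, and a cross marks the peak on the strand opposite to its gene. The shared peaks lie in UHRF2, TET1, TET2 and TET3.

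Among the genes that maintain methylation, DNMT1 carried fewer peaks in the knockout. DNMT1, the maintenance methyltransferase, lies on the minus strand of chromosome 19 from 10133346 to 10194953 and held 2 knockout and 5 wild-type peaks. The intervals of these counts, 0.242 to 7.22 and 1.62 to 11.7, overlap. Of 2016 protein-coding genes of like length, within 1.25-fold, 27.7% had at least 2 knockout peaks and 4.66% at least 5 wild-type peaks. The knockout peak at 10166636 to 10166853 had a fold of 5.33 on 217 IP reads and a local input of 17 reads, the most IP reads of any member peak. The other knockout peak, at 10162699 to 10162898, had a fold of 4.98 on 66 IP reads. The DNMT1 peaks in the knockout thus combined low folds, at percentiles 13.8 and 17.6 of the list, with many reads. The wild-type peaks had folds of 6.09, 2.78, 4.56, 7.49 and 3.98, on 44, 115, 54, 26 and 33 IP reads, of which the 26 could also be 13. No DNMT1 peak was shared, and the nearest pair, a knockout peak and the wild-type peak at 10160389 to 10160611, lay 2088 bp apart.

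UHRF1, which binds hemimethylated DNA and brings DNMT1 to it, lies on the plus strand of chromosome 19 from 4903080 to 4962154. It held 1 knockout peak, at 4954259 to 4954458, with a fold of 7.96 on 71 IP reads, and 0 wild-type peaks. The nearest wild-type peak on that strand was 14942 bp away. Of 2063 protein-coding genes of like length, 50.3% had a knockout peak and 42.5% no wild-type peak.

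UHRF2, a relative of UHRF1 that binds hydroxymethylated DNA, lies on the plus strand of chromosome 9 from 6413199 to 6507054 and held 4 knockout and 5 wild-type peaks. Of 1646 protein-coding genes of like length, 14.1% had at least 4 knockout peaks and 13.7% at least 5 wild-type peaks. A single site was found in both lists, near the middle of the gene. There the knockout peak at 6460590 to 6460791 had a fold of 9.38 on 21 IP reads, against 8.42 on 15 IP reads for the wild-type peak at 6460423 to 6461004. The wild-type peak spanned 582 bp, the widest of all member peaks. The other knockout peaks had folds of 9.20, 6.94 and 6.40 on 29, 15 and 15 IP reads. The other wild-type peaks had folds of 6.57, 7.46, 3.93 and 8.65 on 20, 20, 10 and 22 IP reads. All UHRF2 peaks were thus called on at most 29 IP reads, and the knockout peak of fold 6.94 lay 419 bp from the wide wild-type peak without touching it.

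The de novo methyltransferase genes were nearly free of peaks. DNMT3A, on the minus strand of chromosome 2 from 25227874 to 25342590, held 0 peaks in both lists. An empty gene of that size was not rare, since 34.3% of 1454 protein-coding genes of like length had no knockout peak and 30.1% no wild-type peak. DNMT3B, on the plus strand of chromosome 20 from 32762385 to 32809356, held 1 knockout peak and 0 wild-type peaks. The peak lay at 32787225 to 32787445 with a fold of 10.7 on 49 IP reads, at the 88.4th percentile of knockout folds. The nearest wild-type peak on its strand was 353.5 kb away, outside the gene. Of 2223 protein-coding genes of like length, 46.1% had a knockout peak and 47.0% no wild-type peak. A count of 0 allows up to 3.69 peaks by the Poisson interval, so a difference of 1 peak was not resolved.

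The TET genes, the longest of the 9, held 13 of 23 peaks in the knockout and 14 of 25 in wild type, and 6 of the 7 shared sites. Per 100 kb they held 3.096 knockout and 3.33 wild-type peaks, against 3.26 and 4.66 in the maintenance genes and 8.69 and 4.35 in TDG. TET1, a methylcytosine dioxygenase, lies on the plus strand of chromosome 10 from 68560337 to 68694487. It held 5 knockout peaks (95% Poisson interval 1.62 to 11.7) and 8 wild-type peaks (3.45 to 15.8). Of 1326 protein-coding genes of like length, 14.8% had at least 5 knockout peaks and 6.86% at least 8 wild-type peaks. RefSeq gives TET1 an outer start at 68560337 and inner starts at 68600268 and 68600474. The stretch between the outer and the first inner start held 1 knockout and 5 wild-type peaks on the strand of the gene, and 3 knockout and 3 wild-type peaks lay beyond the inner starts. Transcripts that begin at an inner start do not contain that stretch, and which start these cells used was not measured. The 250 bases before the outer and the first inner start are printed because these starts bound that stretch. They are from RefSeq (GRCh38.p14), plus strand, 5′ to 3′, with each CG, the pair that DNA methylation acts on and that reads the same on both strands, in capitals:
TET1 outer start, chr10:68560087-68560336: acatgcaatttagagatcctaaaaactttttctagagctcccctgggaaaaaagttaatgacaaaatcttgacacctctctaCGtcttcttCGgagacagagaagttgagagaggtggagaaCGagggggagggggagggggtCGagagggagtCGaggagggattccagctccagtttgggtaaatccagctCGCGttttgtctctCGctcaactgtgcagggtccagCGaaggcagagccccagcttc
TET1 first inner start, chr10:68600018-68600267: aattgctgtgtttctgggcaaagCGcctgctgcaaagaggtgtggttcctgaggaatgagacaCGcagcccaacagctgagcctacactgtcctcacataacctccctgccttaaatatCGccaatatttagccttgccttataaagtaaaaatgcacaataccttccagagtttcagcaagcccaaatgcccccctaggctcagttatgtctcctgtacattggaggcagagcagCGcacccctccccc
The outer sequence held 9 CG pairs and the inner 4, and that before the inner start at 68600474, which overlaps it and is not printed, held 11, against a median of 11 over 35116 RefSeq promoters cut to the same length, of which 93.9% held at least 1. No peak touched either sequence, the nearest on the strand of the gene being 11.7 kb from the outer start.

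In the stretch before the inner starts, a site 12 kb from the outer start was the shared one. The knockout peak at 68572086 to 68572503 had a fold of 7.51 on 139 IP reads and a local input of 8 reads. The wild-type peak at 68572045 to 68572539 had a fold of 4.45 on 145 IP reads and a local input of 19 reads. The local input was thus lower in the knockout. Raw IP reads had a knockout over wild-type ratio of 0.959, but they are not on the same scale in the 2 lists. The median shared pair in protein-coding genes had a ratio of 1.16, and this site stood at percentile 29.5 of those pairs. The other 4 wild-type peaks of the stretch, with folds of 2.63, 4.97, 7.64 and 5.95 on 98, 18, 21 and 16 IP reads, had no knockout partner. The first of them lay 313 bp from the shared knockout peak and the rest 6037 to 10927 bp from it.

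Beyond the inner starts TET1 held the shared peak with the largest gap in fold. The knockout peak at 68645754 to 68646191 had a fold of 14.03 on 74 IP reads and a local input of 1.6 reads, against 5.99 on 107 IP reads and 10 reads for the wild-type peak at 68645824 to 68646198. At the shared site 94 kb from the outer start the folds were 7.66 on 65 IP reads in the knockout and 7.56 on 93 in wild type. A wild-type peak at 68644556 to 68644847, with a fold of 8.82 on 71 IP reads, ended 907 bp before the nearest knockout peak. A knockout peak at 68690759 to 68691287, near the 3′ end of the gene, had a fold of 8.28 on 29 IP reads. It had no wild-type peak within 36.5 kb on its strand. The remaining knockout peak, at 68604088 to 68604287, was the one member peak on the strand opposite to its gene, with a fold of 5.13 on 11 IP reads.

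TET2, the dioxygenase gene that is often mutated in myeloid blood disease, lies on the plus strand of chromosome 4 from 105145875 to 105279803 and held 4 peaks in each list. Of 1321 protein-coding genes of like length, 23.9% had at least 4 knockout peaks and 33.4% at least 4 wild-type peaks. Their positions differed, with 1 site in common. At that site the knockout peak at 105193063 to 105193350 had a fold of 5.95 on 60 IP reads and a local input of 4 reads, against 3.13 on 55 IP reads and 10 reads for the wild-type peak at 105193030 to 105193287. The strongest TET2 peak of the knockout, at 105236650 to 105237218, had a fold of 13.0 on 66 IP reads and a width of 569 bp. Its nearest wild-type peak on the strand was 29234 bp away. The other knockout peaks had folds of 7.75 and 3.43 on 27 and 48 IP reads, at 6.03% and 49.02% of the gene. The other wild-type peaks all lay in the last 10% of the gene, with folds of 5.44, 7.77 and 10.5 on 10, 15 and 26 IP reads. Every TET2 peak was on the strand of TET2. In both lists, all but the first knockout peak also lay within the bounds of the antisense gene TET2-AS1, and that first peak lay within those of LOC124900868.

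TET3, the third dioxygenase gene, lies on the plus strand of chromosome 2 from 73983631 to 74135498 and held 4 knockout and 2 wild-type peaks. Of 1187 protein-coding genes of like length, 26.5% had at least 4 knockout peaks and 59.6% at least 2 wild-type peaks. Both wild-type peaks had a knockout partner. At 74039953 to 74040196 the knockout fold was 5.53 on 21 IP reads, against 9.28 on 32 IP reads in wild type at 74040173 to 74040376. This pair overlapped by 24 bp, with summits 166 bp apart. At 74120839 to 74121052 the knockout fold was 6.88 on 18 IP reads, against 8.11 on 16 IP reads in wild type at 74120850 to 74121049. TET3 was thus the gene whose shared peaks had the lower fold in the knockout. The last pair also lies within the bounds of the pseudogene FNBP1P1, so its reads are uncertain between these genes. The other knockout peaks had folds of 9.61 and 6.50 on 38 and 15 IP reads.

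TDG, the glycosylase that removes formylcytosine and carboxylcytosine, is the shortest of the 9 genes and carried the strongest peak of all. It lies on the plus strand of chromosome 12 from 103965872 to 103988874. The knockout peak at 103971459 to 103971709 had a fold of 23.4 on 125 IP reads and a local input of 1.6 reads, at the 99.7th percentile of knockout folds. A further knockout peak, at 103976291 to 103976508, had a fold of 9.97 on 42 IP reads. The one wild-type peak, at 103979749 to 103979987, had a fold of 7.64 on 21 IP reads. No TDG peak was shared, and the nearest pair lay 3241 bp apart. Among 2314 protein-coding genes of like length, 10.6% had at least 2 knockout peaks and 38.4% at least 1 wild-type peak.

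Of the knockout member peaks, 7 of 23 (30.4%, 95% Clopper-Pearson interval 13.2 to 52.9) had a wild-type peak at the same place on the same strand. Over all knockout peaks in protein-coding genes the share was 26.5%. Of the wild-type member peaks, 7 of 25 (28%, 12.1 to 49.4) had a knockout partner, against 21.3% over all wild-type peaks in protein-coding genes. Both intervals include the share of all peaks, so no difference between the 9 genes and all coding-gene peaks was resolved. The intervals are wide and treat peaks of 1 gene as independent. Sharing went with read support, with 13.5% of knockout and 11.9% of wild-type coding-gene peaks of 16 to 30 IP reads shared, and 71.3% and 71.0% of those above 100. At the rate seen in coding genes for peaks of similar read support, 6.93 of the 23 knockout and 6.39 of the 25 wild-type member peaks would be shared. These totals do not show the same trend within the 9 genes. Of knockout member peaks, 3 of 6 with 16 to 30 IP reads were shared and 1 of 3 above 100. In wild type these were 1 of 10 and 2 of 3. By role, the TET genes had 6 of 13 knockout and 6 of 14 wild-type peaks shared, and the maintenance genes 1 of 7 and 1 of 10. The intervals of these shares, 19.2 to 74.9% and 17.7 to 71.1% for the TET genes and 0.361 to 57.9% and 0.253 to 44.5% for the maintenance genes, overlap. Of the unshared member peaks, 15 of 16 in the knockout and 16 of 18 in wild type lay more than 1 kb from the nearest peak of the other list on their strand. That held for 90.3% of unshared knockout and 92.7% of unshared wild-type peaks in protein-coding genes, so the member peaks were ordinary in this.

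At the 7 shared sites the folds were set side by side. Their scales differ between the lists, so each ratio is read beside those of all shared pairs. The fold was higher in the knockout at 5 of 7, against 51.1% of the 4862 shared pairs in protein-coding genes. TET1 held 3 of the 7 sites, and sites of 1 gene are not independent. At the last of these TET1 sites the folds were nearly equal, 7.66 in the knockout and 7.56 in wild type. The log2 ratio of knockout over wild-type fold had a median of 0.16 at the 7 sites, with a lowest of −0.75 in TET3 and a highest of 1.23 in TET1. Over all such pairs the median was 0.018 and the quartiles were −0.50 and 0.52. The TET1 site 86 kb from the outer start stood at the 92.8th percentile of those pairs, TET2 at the 87.5th and the TET1 site at 12 kb at the 83.0th. Local input was lower in the knockout at 6 of 7 sites, against 56.1% of pairs. At UHRF2 this rests on the reads chosen in wild type, since 14 IP reads with a local input of 0.128 also solve that peak. The ratio of local input, knockout over wild type, was 0.42, 0.16 and 0.485 at the TET1 sites, 0.40 at TET2, 0.83 and 1.25 at TET3 and 0.90 at UHRF2, where the median pair had 0.867. IP reads were also fewer at the TET1 sites beyond the inner starts, with knockout over wild-type ratios of 0.692 (95% counting interval 0.507 to 0.939) and 0.699 (0.501 to 0.970), while the median pair had 1.16. Local input is the peak caller's estimate of input reads around the summit and is part of the fold itself, so both move together by construction. It does not tell less RNA per cell from fewer cells or from fewer input reads sequenced. Total reads per library are not given, and the part of local input in the differences between the lists was not tested.

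**Figure D3:**
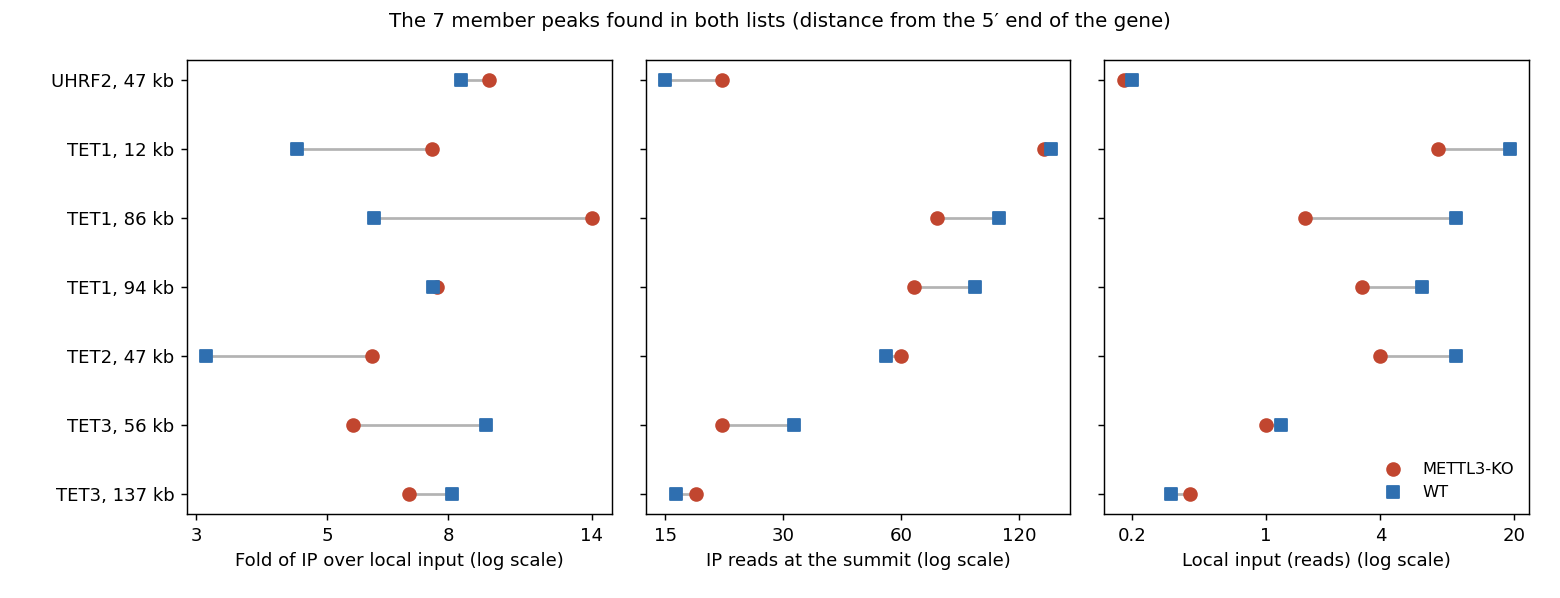
Fold of IP over local input, IP reads and local input, each on a log axis, at the 7 sites found in both lists (METTL3-KO circles, WT squares), named by gene and distance from the 5′ end. At the TET1 sites at 12 and 86 kb and at TET2, the fold is higher and the local input lower in METTL3-KO.

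Ranked within its own list, the median member peak stood at percentile 60.6 of fold in the knockout (95% interval of the median 35.6 to 80.6). In wild type it stood at percentile 37.1 (14.8 to 56.3). Peaks in protein-coding genes had medians at percentiles 50.1 and 49.5, within both intervals, which treat peaks of 1 gene as independent. In the highest 10% of folds were 3 of 23 knockout member peaks, from TDG, TET1 and TET2, and 0 of 25 wild-type ones, where 10% of each whole list stands by definition. In the lowest 10% were 1 of 23 knockout peaks, from TET2, and 5 of 25 wild-type peaks, which belonged to DNMT1, UHRF2, TET1 and TET2. Median folds were 7.66 in the knockout and 6.57 in wild type, on scales that differ, against 7.06 and 7.26 over all coding-gene peaks. The member peaks rested on a median of 42 IP reads (range 11 to 217) in the knockout and 26 (10 to 145) in wild type.

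**Figure D4:**
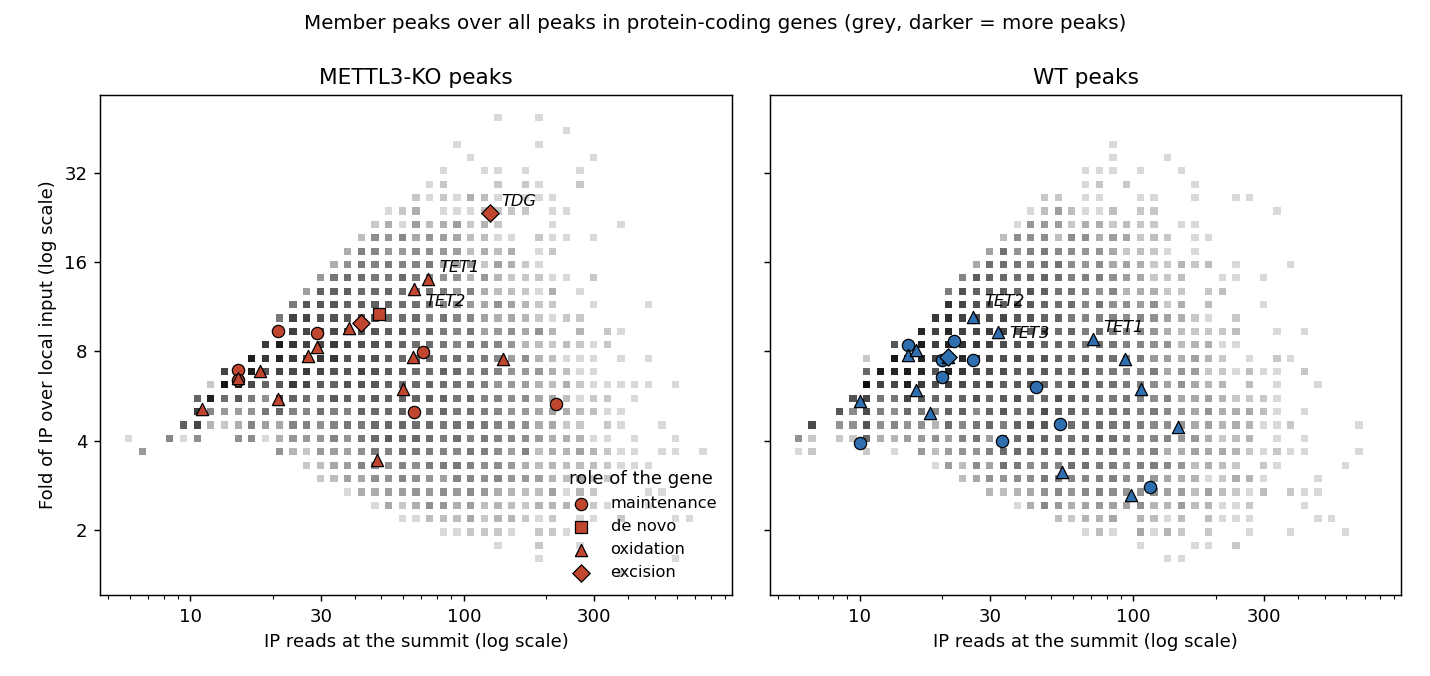
Fold of IP over local input against IP reads at the summit, both on log axes, for the member peaks (coloured, with a marker shape for each role) over all peaks in protein-coding genes (grey squares, darker for more peaks), METTL3-KO left and WT right. The TDG peak with a fold of 23.4 stands above all other member peaks, and the WT member peaks all have folds of 10.5 or less.

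The peaks shared their strand with the gene in 22 of 23 cases in the knockout and 25 of 25 in wild type. Of all peaks in exactly 1 protein-coding gene, 92.8% of knockout and 93.4% of wild-type peaks did so. They lay along the whole gene, with the median summit at 49.8% of the gene's length in the knockout and 59.9% in wild type. Coding-gene peaks in genes of the same length range had medians of 51.7% and 50.7%. The first 10% of the gene held 2 knockout peaks, in TET1 and TET2, and 2 wild-type peaks, both in TET1. The last 10% held 2 knockout peaks, in TET1 and TET3, and 4 wild-type peaks, of which 3 were in TET2 and 1 in TET3. Of coding-gene peaks in genes of the same length range, 10.1% of knockout and 10.5% of wild-type ones lay in the first 10%. In the last 10% lay 11.9% and 11.5%. No peak on the strand of its gene came closer than 5.59 kb to a RefSeq start listed for that gene, a distance reached in TDG. Whether a peak lies over an exon or an intron could not be read from gene bounds. Widths ran from 200 to 569 bp in the knockout (median 218) and from 200 to 582 bp in wild type (median 235), against medians of 212 and 206 bp over coding-gene peaks.

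The wider pathway was read through 5 lists of 52 other genes, of which 25 held a knockout peak and 25 a wild-type peak. Both lists held peaks in 16 of them, 9 had knockout peaks alone, 9 wild-type peaks alone and 18 none. Over all protein-coding genes 34.8% held a knockout and 39.6% a wild-type peak, and of such genes 23.6% and 32.8% had none in the other list. Lengths of the 52 genes were not matched in this. There were 59 knockout peaks in these genes, 15 of them shared, and 64 wild-type peaks, 16 of them shared. These shares, 25.4% (14.98 to 38.4) and 25% (15.02 to 37.4), lie near the 26.5% and 21.3% of all coding-gene peaks. Strand was not considered in these counts.

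Methyl-CpG readers, the proteins that bind methylated DNA and their relatives, were the list with most peaks, in 8 of 10 genes in the knockout and 6 of 10 in wild type. MBD5, a long gene, accounted for 12 of their 21 knockout and 14 of their 22 wild-type peaks. MBD2, a methyl-CpG binding repressor, held 2 knockout and 3 wild-type peaks with none shared. The zinc finger readers ZBTB38 and ZBTB4 held 2 and 1 knockout peaks, against 1 and 2 wild-type peaks, and the wild-type peak in ZBTB38 lay on the opposite strand.

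Partners of the methyltransferases had peaks in 3 of 11 genes in each list. QSER1, which protects sites from de novo methylation, held 6 knockout and 7 wild-type peaks with 3 shared, and HELLS, a remodeller needed for normal methylation, 3 and 3 with 1 shared. Of the 6 knockout peaks in QSER1, 5 lay on the strand of the gene. TRDMT1, a transfer RNA methyltransferase related to the DNMT enzymes, held 2 knockout peaks with folds up to 14.3 and 0 wild-type peaks. CDCA7L held 0 knockout peaks and 1 wild-type peak with a fold of 15.9, on the strand opposite to the gene. The other 7 genes had none.

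TET partners and suppliers of their cofactor had peaks in 4 of 9 genes in the knockout and 6 of 9 in wild type. OGDH, a citric acid cycle enzyme that consumes the TET cofactor, held 2 knockout and 3 wild-type peaks. IDH1, an enzyme that makes the cofactor, held 2 knockout peaks and 1 wild-type peak. OGT, a sugar transferase that binds TET proteins, held 1 peak in each list at the same place, with a fold of 4.43 in the knockout and 5.27 in wild type.

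The list of base excision and cytosine deamination genes had peaks in 6 of 14 genes in the knockout and 5 of 14 in wild type. NEIL3, a glycosylase, held 4 knockout and 3 wild-type peaks with 1 shared, and LIG3, a ligase, 1 and 2 with 1 shared. Of the 2 wild-type peaks in LIG3, 1 lay on the strand of the gene. The scaffold gene XRCC1 held 3 knockout and 0 wild-type peaks, and the glycosylase gene SMUG1 0 and 2. Genes of methyl donor supply had peaks in 4 of 8 in the knockout and 5 of 8 in wild type. MTR, the methionine synthase, held 4 knockout and 5 wild-type peaks, AHCYL2 3 and 3, and AHCY, which clears the by-product of methylation, 1 and 3, each with 1 shared site.

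**Figure D5:**
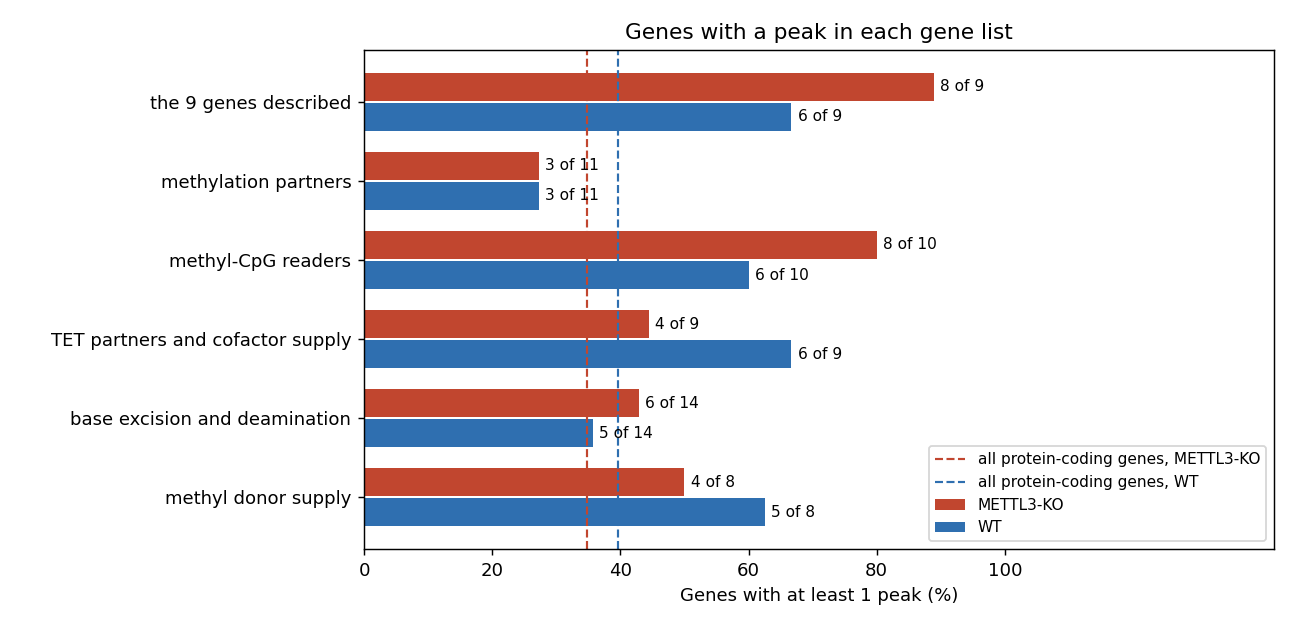
Share of genes with at least 1 peak in each gene list (METTL3-KO above WT in each pair), with the number of genes beside each bar and dashed lines at the share of all protein-coding genes, 34.8% in METTL3-KO and 39.6% in WT. The 9 genes described stand at 8 of 9 and 6 of 9, and the partners of the methyltransferases at 3 of 11 in both lists.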

How the data were processed

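Per the labels' protocols, chromosome-associated RNA of knockout and parental HEK293T cells was immunoprecipitated for m6A, and strand-specific libraries were prepared from both IP and input RNA. The tools listed in the submitters' processing notes are MACS2 2.2.7.1, HISAT2 2.2.1 and SAMtools 1.15.1, with the build hg38. The 2 deposited peak lists, 1 per genotype, give position, strand, a display score (the deposited score, not used here), the authors' fold (a linear ratio, IP against local input), and deposited −log10 values of p and q (p-value and q-value). The lowest −log10 q was 2.02 in the knockout and 2.01 in wild type. Settings, total reads per library and whether replicates were pooled are not given in the sources used here.

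Peaks were matched to gene bounds of RefSeq GRCh38.p14, and strand came from its promoter table, which matched all 9 genes and 15843 of 20056 protein-coding genes. Shared peaks are same-strand peaks of the 2 lists with an overlap of 1 bp or more. IP pileup and local input were solved for from the fold, a ratio of both after 1 is added to each, and the p-value, a Poisson tail. This gave a whole number of IP reads, within 0.01 read, for over 99.99% of peaks of each list and strand, and the peaks without one are not counted by reads. The solution was unique for 92.7 to 95.4% of peaks, and otherwise the one nearest a whole number was taken. All 23 knockout and 23 of the 25 wild-type member peaks had 1 solution. The recovery was tested on data simulated under the same formulas, which cannot show that the deposited values follow them. The overlap count was tested on shifted copies of the wild-type peaks. Intervals are 95% and cover counting error only. Percentiles of fold are mid-ranks within a list. Python 3.11.15, numpy 2.4.6, pandas 2.3.3, SciPy 1.17.1 and matplotlib 3.10.9 were used.

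The genes, lists and rules were chosen with earlier results of these data known. All 9 genes are named, with every peak, and of each other list up to 4 genes with most peaks over both lists. Where a tie left more than 4, the tied genes are not named, and 1 gene under this rule is not reported here. The planned motif count in peak sequences and the exon assignment were not run, since no genome sequence or exon annotation was used here.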

Additional observations from a re-analysis of the deposited data

How the results depend on the processing

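The counts of member peaks, of genes with a peak, of pathway genes with a peak, the shared shares, the fold ranks and the positions were recomputed under other thresholds, gene bounds, strand rules, overlap rules and rankings. All 46 values stayed within 1.5 times the main count or within the 95% interval of the main share or median. These limits are wide, and some values could not change. The knockout list is the shorter, so taking equal numbers of strongest peaks left its counts as they were. All 25 wild-type member peaks were on the strand of the gene, so the strand rule left their values as they were. With a −log10 q of 5 or more, member peaks numbered 20 in the knockout and 20 in wild type, and with equal numbers of strongest peaks 23 and 19. The main counts were 23 and 25, so which list held more member peaks depended on the setting. The shared share of knockout member peaks ran from 21.7 to 30.4%, and that of wild-type member peaks from 20 to 35%, over the overlap rules and thresholds tried, the lowest in both with a reciprocal overlap of 50%. Over the same settings the share of coding-gene peaks ran from 22.1 to 28.3% in the knockout and from 17.7 to 23.3% in wild type, and the 35% stood against 22.2%. The comparison with coding-gene peaks of like IP reads was added after seeing the data. No paired analysis was possible because neither list holds values per replicate, and for the same reason no replicate could be left out. With 7 shared sites and a median of 42 knockout and 26 wild-type IP reads, differences between roles or single genes are limited by counts.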
